A study of Oryctolagus cuniculus with 16 samples.

Results

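The data analyzed here concern 10 genes of lipid-laden macrophages and of cholesterol handling in the femoral head: *GPNMB*, *TREM2*, *TYROBP*, *SPP1*, *APOE*, *LGALS3*, *FABP5*, *ABCA1*, *ABCG1* and *NR1H3*. They are 10 of the 20255 genes in the count table. The genes were picked by name, 9 through their symbol and *TREM2* through its gene ID, because the table lists it as LOC100348748. They were proposed with the difference between Perthes and control rabbits already known, so their own levels and fold changes in that contrast are given as a description. The fit covered them with all other genes, and the counts of them that it called are printed as part of that description, with no p-value for any of the 10 and nothing read from the counts. Other genes of the same pathways are given with their p-values. The lists that hold them, and those of cell markers, were also chosen with earlier results of these data known.

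Total RNA was sequenced from femoral head tissue of 5 Perthes and 3 control animals, all wild-type rabbits although the sample labels give the groups as genotypes. In the Perthes group the femoral neck had been ligated with a suture and the ligamentum teres transected at an age of 8 weeks, which cuts off the blood supply of the femoral head. The sources used here describe no sham operation for the controls, and give neither the time between operation and sampling nor the age of the controls. The model is therefore surgical ischemia in young rabbits, and an effect of the operation itself and an effect of the lost blood supply cannot be told apart.

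Macrophages that clear dead cells and fatty marrow debris take up large amounts of lipid, and adopt a characteristic expression program known from atherosclerotic plaque, fat tissue and damaged brain. TREM2 is a surface receptor for lipids and lipoproteins on such cells, and it transmits its signal through the adaptor TYROBP (DAP12). GPNMB (osteoactivin) is a glycoprotein of lysosomes and the cell surface, under the control of the MITF family of transcription factors, and is also made by osteoclasts, osteoblasts and pigment cells. APOE is the lipid carrier that macrophages secrete, LGALS3 (galectin 3) and SPP1 (osteopontin) are secreted proteins that bind sugars and integrins, and FABP5 carries fatty acids inside the cell. When cholesterol accumulates, its oxidized derivatives activate the liver X receptors (LXR), of which NR1H3 encodes LXRα, and these switch on the cholesterol exporters ABCA1 and ABCG1. In bone, SPP1 is in addition a major product of osteoblasts and osteoclasts.

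The 8 libraries held from 26757077 to 29461483 counts, with overlapping totals in both groups, and 15305 genes passed the filter on low counts, all 10 of the genes described here among them. Levels are given as CPM, the usual scale of counts relative to the library total, after scaling of the libraries by the TMM method, and these values compare rabbits for the same gene. A gene is called where the adjusted p of edgeR's quasi-likelihood test is under 0.05 over all 15305 genes. Because femoral head tissue was sequenced whole, more cells of a type and more RNA per cell cannot be told apart. Bone markers were abundant (summed level of 10 osteoblast and osteocyte genes 46394 to 145726 CPM in Perthes and 74003 to 92542 CPM in control rabbits), as were those of cartilage. Nearly all of the bone sum was *COL1A1*, which is not confined to bone cells (44666 of 46394 CPM in Perthes rabbit 1, 72816 of 74003 CPM in control rabbit 1). *IBSP* of the same list was at 593 to 1749 CPM in Perthes and 231 to 744 CPM in control rabbits. Markers of skeletal muscle summed to 0.388 to 9.48 CPM, so that the labelled tissue matched its markers.

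*GPNMB* had the largest difference of the 10 genes. Its level was 5491, 4187, 3992, 314 and 4236 CPM in Perthes rabbits 1 to 5, against 19.5, 16.0 and 23.3 CPM in control rabbits 1 to 3. The groups did not overlap, and Perthes rabbit 4 was low within its group but still at 16.0 times the control mean. The mean was 3644 ± 1954 CPM (SD, n = 5) in Perthes and 19.6 ± 3.65 CPM (SD, n = 3) in control rabbits. In the fit, the log2 fold change was 7.54 (standard error 0.98), a 186-fold difference, and *GPNMB* ranked 6 among the 15305 genes by log2 fold change. In absolute terms, its 162577 counts made up 0.595% of the whole library of Perthes rabbit 1. The same gene took 0.00170% of the library of control rabbit 2.

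*TREM2*, the lipid receptor, was likewise highest in Perthes rabbit 1 and lowest, within that group, in rabbit 4. It reached 196, 108, 156, 15.2 and 184 CPM in Perthes rabbits 1 to 5 and 2.72, 2.57 and 3.49 CPM in control rabbits 1 to 3. Again the groups were apart, and rabbit 4 was at 9.45% of the mean of the other 4. The log2 fold change was 5.49 (standard error 0.82), or 44.9-fold. The control values rested on 73 to 105 counts per library, so that *TREM2* was low but measurable in normal femoral heads.

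*TYROBP*, the adaptor without which TREM2 does not signal, differed far less. It stood at 272, 136, 181, 72.4 and 204 CPM in Perthes rabbits and at 164, 73.6 and 62.6 CPM in control rabbits. The groups overlapped, since control rabbit 1 exceeded Perthes rabbits 2 and 4. The log2 fold change was 0.79 (standard error 0.45). TYROBP also serves other receptors of macrophages, osteoclasts, neutrophils and natural killer cells, and control rabbit 1, with the highest control value, also had the highest summed level of neutrophil markers (19217 CPM, against 5045 and 5474 CPM in the other controls). The part of neutrophils in the *TYROBP* level was not tested.

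**Figure D1:**
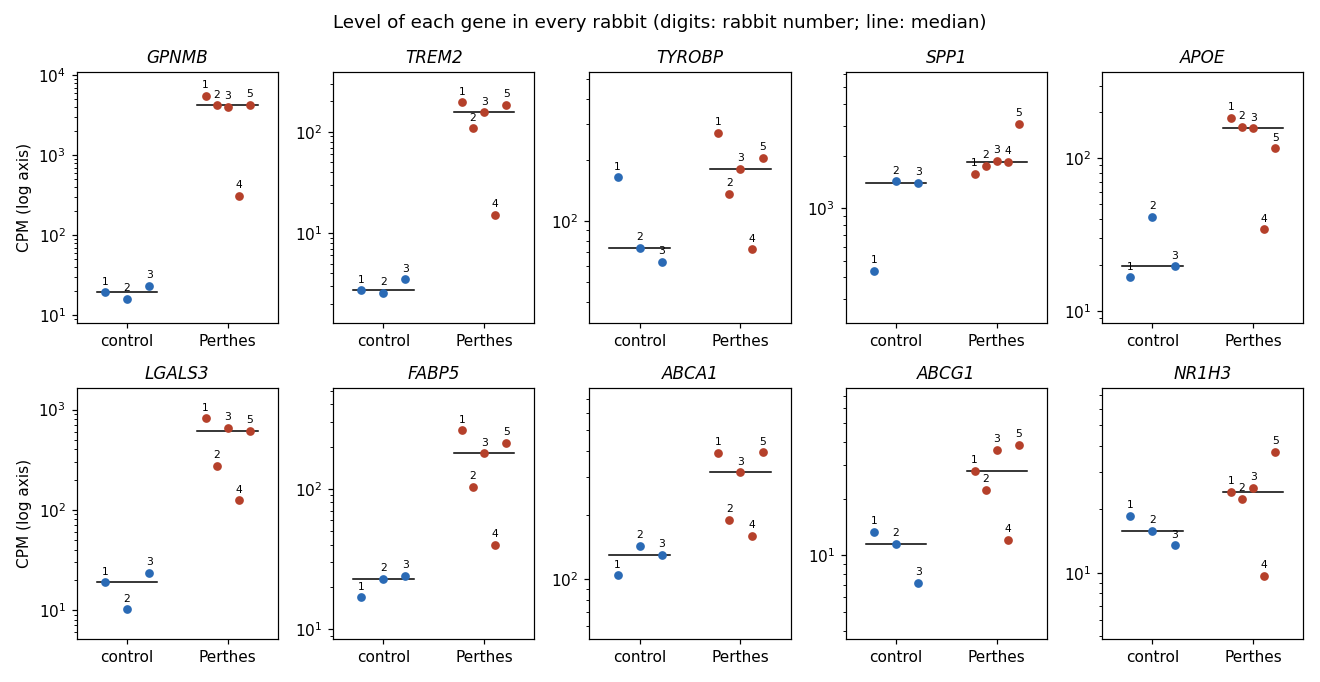
Level of each of the 10 genes in every rabbit, in TMM-scaled CPM on a log axis, with control rabbits in blue and Perthes rabbits in red. Digits give the rabbit number and horizontal lines the group median. For *GPNMB* the 3 controls lie between 16.0 and 23.3 CPM and the Perthes rabbits between 314 and 5491 CPM, with rabbit 4 lowest.

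Among the secreted proteins, *LGALS3* had the largest difference. Galectin 3, which is recruited to damaged lysosomes and released by activated macrophages, had a level of 819, 276, 661, 124 and 613 CPM in Perthes rabbits. The control rabbits had 18.8, 10.2 and 23.3 CPM. All Perthes rabbits were thus above all controls, with rabbits 4 and 2 lowest. The log2 fold change was 4.84 (standard error 0.70), or 28.6-fold.

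*APOE*, the lipid carrier, was at 184, 161, 157, 34.4 and 116 CPM in Perthes rabbits and at 16.7, 41.6 and 19.7 CPM in control rabbits. Control rabbit 2 exceeded Perthes rabbit 4, so the groups overlapped by a single pair, and the other 4 Perthes rabbits were above every control. The log2 fold change was 2.33 (standard error 0.55), or 5.03-fold.

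*SPP1* was already abundant in normal femoral heads and differed by a smaller factor. Its values were 1583, 1768, 1883, 1854 and 3067 CPM in Perthes rabbits and 436, 1431 and 1400 CPM in control rabbits. The groups were narrowly apart, Perthes rabbit 5 stood above the rest, and control rabbit 1 well below. The log2 fold change was 0.90 (standard error 0.41), or 1.86-fold. *SPP1* was the only member of the 10 for which Perthes rabbit 4 was not the lowest Perthes rabbit, since it reached 89.4% of the mean of the other 4.

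*FABP5*, the fatty acid carrier, had 261, 104, 179, 39.9 and 211 CPM in Perthes rabbits and 16.9, 22.7 and 23.9 CPM in control rabbits. The groups did not overlap, and the log2 fold change was 2.91 (standard error 0.57), or 7.50-fold. *FABP5* has near-identical copies in mammalian genomes, so its counts are uncertain where reads could be assigned to more than 1 copy.

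The cholesterol exporters had differences between those of *SPP1* and *APOE*, and their nuclear receptor had a smaller one. *ABCA1*, which loads cholesterol onto lipid-poor apolipoprotein, was at 391, 189, 317, 160 and 394 CPM in Perthes rabbits and at 104, 143 and 130 CPM in control rabbits, with the groups apart. *ABCG1*, which exports cholesterol to mature lipoprotein particles, was at 28.0, 22.3, 36.2, 12.1 and 38.4 CPM against 13.3, 11.5 and 7.18 CPM. Only Perthes rabbit 4 fell into the control range for *ABCG1*. The log2 fold changes were 1.21 (standard error 0.34) for *ABCA1* and 1.36 (standard error 0.38) for *ABCG1*.

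*NR1H3* itself was at 24.3, 22.5, 25.3, 9.68 and 37.5 CPM in Perthes rabbits and at 18.7, 15.9 and 13.5 CPM in control rabbits. Perthes rabbit 4 was below every control and the other 4 Perthes rabbits were above every control, so the groups overlapped. The log2 fold change was 0.57 (standard error 0.36), the smallest of the 10. The ratio of *ABCG1* to *NR1H3* within a library was 0.992 to 1.43 in Perthes and 0.532 to 0.727 in control rabbits, so both ranges were apart even with rabbit 4. That of *ABCA1* to *NR1H3* overlapped, at 8.43 to 16.5 against 5.58 to 9.66.

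All 10 log2 fold changes were above 0, with a median of 1.85, where the median of all genes tested was 0.02. Of the 10 genes, 7 were called higher, 0 lower, and 3 (*TYROBP*, *SPP1* and *NR1H3*) were not called, where 6.21% of all genes tested were called higher. The groups were apart, with Perthes higher, for 6 of the 10 genes, where this held for 11.2% of all genes tested. Nothing is read from these counts, because the contrast served to choose the genes. The calls also depended on single rabbits, since 0 of the 10 were called by edgeR without control rabbit 2, 2 without control rabbit 1, and 4 each without control rabbit 3, Perthes rabbit 3 or Perthes rabbit 5. Over all genes, 0 of 15594 were called higher without control rabbit 2 and 73 of 15632 without control rabbit 1. The loss of calls was therefore not particular to the 10. At an unadjusted p under 0.05, 8 of the 10 were higher without control rabbit 2, where 1624 of all genes were. Without control rabbit 1, 8 of the 10 were higher, where 1861 of all genes were. Nothing is read from these counts either. DESeq2 called 7 with all rabbits.

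**Figure D2:**
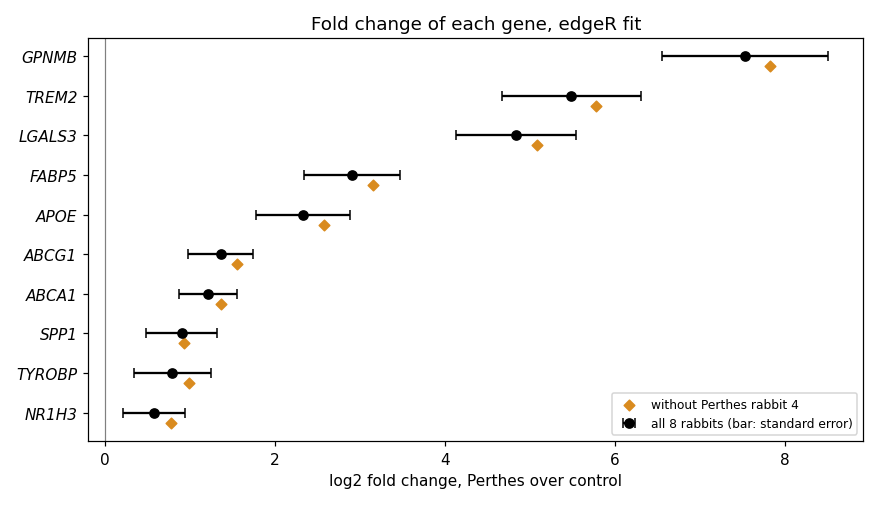
Log2 fold change of each gene, Perthes over control, from the edgeR fit on all genes, with all 8 rabbits (black, bars are the standard error) and without Perthes rabbit 4 (orange). *GPNMB* is at 7.54 and *NR1H3* at 0.57, and every orange point lies to the right of its black point.

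Perthes rabbit 4 set much of the spread within the Perthes group. It was the lowest Perthes rabbit for 9 of the 10 genes, at 7.02% of the mean of the other 4 for *GPNMB*, 20.9% for *LGALS3*, 21.1% for *FABP5*, 22.3% for *APOE* and 49.5% for *ABCA1*. How often rabbit 4 was lowest over all genes was not computed. Relative to the control mean, rabbit 4 was 16.0-fold for *GPNMB*, 7.10-fold for *LGALS3* and 5.20-fold for *TREM2*, whereas it was 0.723-fold for *TYROBP* and 0.604-fold for *NR1H3*. It therefore showed *GPNMB*, *LGALS3* and *TREM2* above the controls while its *TYROBP* and *NR1H3* were not. Among the other 4 Perthes rabbits *GPNMB* varied little, from 3992 to 5491 CPM, a factor of 1.38, which is smaller than the factor of 1.46 among the controls. *LGALS3* varied by a factor of 2.96 among those 4, with rabbit 2 lowest.

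Without Perthes rabbit 4, the groups were apart for 9 of the 10 genes and 8 were called higher. Over all genes, 1267 were called higher in that fit, against 951 with all rabbits. The share of all genes with groups apart without rabbit 4 was not computed, so nothing is read from the 9. Rabbit 4 was below the mean of the other 4 for each of the 10 genes. That all 10 log2 fold changes were larger without it follows from this, and nothing is read from it. The log2 fold changes were then 7.83 for *GPNMB*, 5.78 for *TREM2*, 5.09 for *LGALS3* and 2.57 for *APOE*. Rabbit 4 also had the lowest summed level of 10 macrophage markers (601 CPM, against 1304 to 2194 CPM in the other Perthes rabbits and 674 to 1160 CPM in controls) and the highest summed level of cartilage markers (148933 CPM, against 36518 to 80425 CPM and 47205 to 67964 CPM). The part of the cell mixture in the values of rabbit 4 was not tested.

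**Figure D3:**
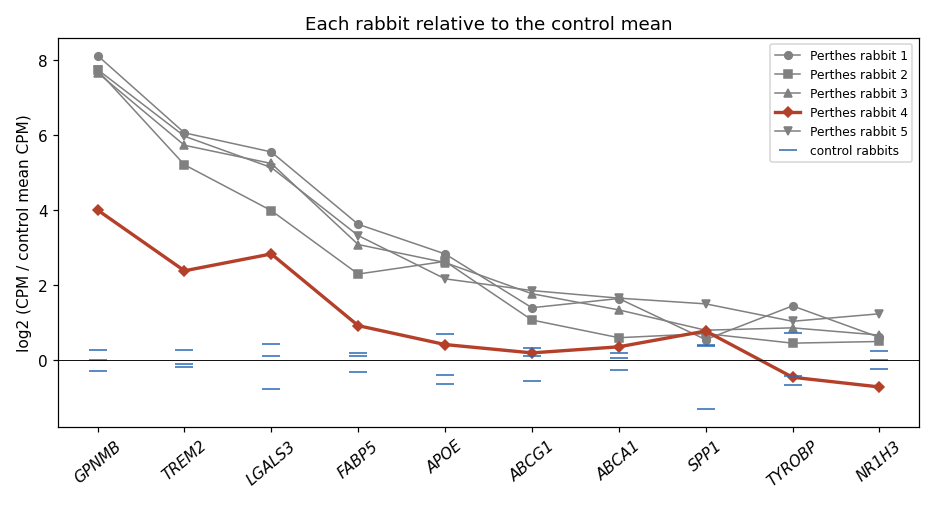
Level of each gene in every rabbit relative to the control mean, as log2 of the CPM ratio, for the 5 Perthes rabbits (lines, rabbit 4 in red) and the 3 controls (blue dashes). Rabbit 4 is the lowest Perthes rabbit for every gene except *SPP1*, where rabbit 1 is lowest, and it is under the control mean for *TYROBP* and *NR1H3*.

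The levels were also set against genes that macrophages express broadly, as ratios within each library, which do not depend on library scaling. *LAPTM5* and *TYROBP* are not confined to macrophages. Summed neutrophil markers, for instance, were at 23.1 to 1527 CPM in Perthes and 5045 to 19217 CPM in control rabbits. The ratios are therefore not levels per macrophage. Relative to *LAPTM5*, a lysosomal membrane gene of blood-derived cells, *GPNMB* was at 5.97, 7.46, 5.04, 1.38 and 4.89 in Perthes rabbits and at 0.0359, 0.0637 and 0.0985 in control rabbits. Relative to *CD68*, a lysosomal glycoprotein of macrophages that is itself higher in Perthes rabbits, it was at 13.3, 17.1, 11.8, 2.78 and 10.1 against 0.275, 0.206 and 0.300. Even in rabbit 4 these ratios were well above every control, and the medians of the groups differed 79.1-fold and 42.8-fold.

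The ratio of *TREM2* to its adaptor *TYROBP* was 0.721, 0.795, 0.860, 0.210 and 0.901 in Perthes rabbits and 0.0165, 0.0350 and 0.0558 in control rabbits. It was close to constant among the 4 Perthes rabbits other than rabbit 4, and it differed 22.7-fold between the group medians. Relative to *LAPTM5*, *LGALS3* (0.492 to 0.891 against 0.0346 to 0.0987) and *FABP5* (0.176 to 0.284 against 0.0311 to 0.101) were also apart between the groups. *APOE* relative to *LAPTM5* overlapped, at 0.134 to 0.286 in Perthes and 0.0307 to 0.165 in control rabbits. For *APOE*, then, a difference from the controls beyond that of *LAPTM5* was not seen in every rabbit.

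**Figure D4:**
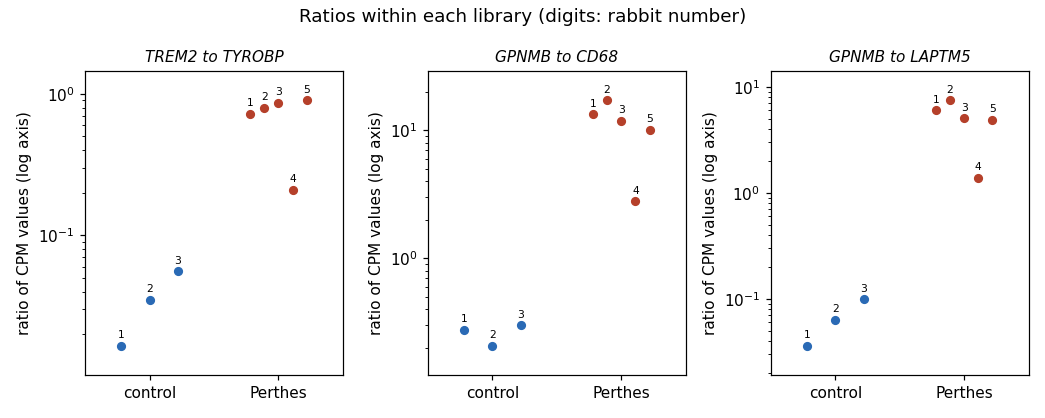
Ratios of CPM values within each library, on log axes, for *TREM2* to *TYROBP*, *GPNMB* to *CD68* and *GPNMB* to *LAPTM5*, with digits for the rabbit number. In each panel the 5 Perthes rabbits (red) lie above the 3 controls (blue), and rabbit 4 is the lowest of the Perthes rabbits, with a *TREM2* to *TYROBP* ratio of 0.210.

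The other genes of these pathways were examined in 6 lists, which hold none of the 10 genes. Because the lists were chosen with earlier results of these data known, their shares of called genes are descriptions. They are not independent support for the 10 genes. Of 112 genes listed, 102 had a row in the table and 101 were tested. Of these 101, 36 were higher in Perthes rabbits (35.6%, where 6.21% of all genes tested were called higher) and 7 were lower (6.93%, where 8.86% of all genes tested were called lower). All p-values below are from edgeR's quasi-likelihood test with Benjamini-Hochberg adjustment over all 15305 genes. The calls were sensitive to single controls, as no listed gene was called without control rabbit 2. Without control rabbit 1, the calls among the 101 were 1 higher and 2 lower.

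The list of other genes of lipid-associated macrophages moved most. Of 24 tested, 17 were higher, 0 lower, and 7 were not called, with a median log2 fold change of 1.39 (0.02 over all genes). By unadjusted p under 0.05 there were 20 higher and 1 lower, and DESeq2 called 19 higher and 1 lower. The lysosomal proteases cathepsin B (*CTSB*) and cathepsin D (*CTSD*) were prominent. *CTSB* was at 3771, 2427, 3546, 745 and 5561 CPM in Perthes and at 580, 488 and 509 CPM in control rabbits (log2 fold change 2.61, adjusted p = 0.0209). *CTSD* was at 563 to 3758 CPM against 333 to 497 CPM (2.56, adjusted p = 0.0192).

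Other members of that list fell into recognizable roles. *CAPG*, an actin-capping protein of motile macrophages, was at 79.6 to 281 CPM against 34.4 to 63.9 CPM (log2 fold change 2.21, adjusted p = 0.0166). The iron storage genes *FTH1* (2.12, adjusted p = 0.0118) and *FTL* (2.05, adjusted p = 0.0218) rose, although both have many processed copies in mammalian genomes and their counts are uncertain for that reason. *CD68* (2.02, adjusted p = 0.0165), the lysosomal tetraspanin *CD63* (1.39, adjusted p = 0.0144), the lysosomal hexosaminidase gene *HEXA* and the lysosomal growth factor precursor *GRN* rose as well. The integrin *ITGAX* and the fungal sugar receptor *CLEC7A* rose with groups that overlapped at rabbit 4. The groups of *GRN* overlapped there too (358 CPM in rabbit 4, 319 to 377 CPM in controls). *ATP6V0D2*, a proton pump subunit of osteoclasts and macrophages, had groups apart (63.0 to 562 CPM against 15.0 to 56.2 CPM) but an adjusted p of 0.0501. *CST7*, *AXL*, *CHI3L1*, *CREG1*, *LGALS1* and *PLD3* did not pass.

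In 14 of the 17 genes called higher in that list, Perthes rabbit 4 was the lowest Perthes rabbit, as for 9 of the 10 genes. Among cell markers, rabbit 4 was lowest for 9 of 10 macrophage and 4 of 4 T cell genes. It was lowest for 0 of 8 chondrocyte and 0 of 8 neutrophil genes. The share over all genes was not computed, so nothing is read from how often rabbit 4 was lowest. Without rabbit 4 the count of genes called higher in the list was 20. It was 8 each without Perthes rabbit 3, Perthes rabbit 5 or control rabbit 3, 1 without control rabbit 1 and 0 without control rabbit 2. At an unadjusted p under 0.05, 19 were higher without control rabbit 2.

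Genes for the uptake, storage and hydrolysis of lipid were split. Of 25 tested, 8 were higher, 2 lower and 15 not called, with a median log2 fold change of 1.03. *PLIN2*, which coats lipid droplets, was at 329, 94.5, 169, 294 and 445 CPM in Perthes and at 52.4, 41.1 and 45.5 CPM in control rabbits (log2 fold change 2.52, adjusted p = 0.0144). Unlike most of the 10 genes, *PLIN2* was not low in rabbit 4, where only rabbits 5 and 1 were higher.

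*LIPA*, the lysosomal acid lipase that frees cholesterol from its esters, was at 911, 426, 520, 83.8 and 679 CPM against 81.7, 85.5 and 80.5 CPM (log2 fold change 2.67, adjusted p = 0.0262). Rabbit 4 lay within the control range of *LIPA* and the other 4 were well above it. *SOAT1*, which re-esterifies cholesterol for storage (68.3 to 197 CPM against 35.8 to 54.3 CPM, 1.47, adjusted p = 0.0218), and *NPC1*, which exports cholesterol from lysosomes (80.1 to 141 CPM against 48.4 to 55.2 CPM, 1.17, adjusted p = 0.0138), rose.

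Among uptake receptors, *LRP1* (3136 to 4225 CPM against 1194 to 1803 CPM, log2 fold change 1.20, adjusted p = 0.0165) and *VLDLR* (54.2 to 91.5 CPM against 12.8 to 34.2 CPM, 1.48, adjusted p = 0.0216) rose. The fatty acid carrier of muscle, *FABP3*, rose from a low level (2.80 to 8.75 CPM against 0.705 to 2.56 CPM, 2.08, adjusted p = 0.0344), and so did the fatty acid sensor *PPARD*. The scavenger receptors *CD36* (87.8 to 995 CPM against 188 to 261 CPM, adjusted p = 0.190) and *MSR1* (16.99 to 112 CPM against 21.6 to 26.7 CPM, adjusted p = 0.182) ranged widely among Perthes rabbits and did not pass. *NCEH1*, a neutral cholesterol ester hydrolase, fell (21.3 to 37.6 CPM against 62.0 to 68.4 CPM, -1.19, adjusted p = 0.0118). *SCARB1*, the receptor for high-density lipoprotein, fell (16.99 to 26.0 CPM against 33.7 to 34.5 CPM, -0.69, adjusted p = 0.0279).

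The count of lipid genes called higher was 12 without Perthes rabbit 4, 5 without Perthes rabbit 3 and 3 without Perthes rabbit 5. It was 0 by edgeR without control rabbits 1 or 2, with 10 higher at an unadjusted p under 0.05 in each case. DESeq2 called 10 higher and 4 lower with all rabbits, and without Perthes rabbit 2 edgeR called 5 lower.

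The partners of LXR and its other target genes changed in both directions. Of 13 tested, 3 were higher, 2 lower and 8 not called, and the median log2 fold change was 0.15. *PLTP*, the phospholipid transfer protein, was at 370, 239, 252, 72.4 and 221 CPM in Perthes and at 40.3, 42.0 and 47.8 CPM in control rabbits (2.41, adjusted p = 0.0142). *MERTK*, a receptor for the engulfment of dead cells, was at 38.3 to 111 CPM against 26.9 to 27.6 CPM (1.62, adjusted p = 0.0163).

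*CD5L*, a secreted survival factor of resident tissue macrophages, was at 0.507, 4.42, 0.551, 0.582 and 0.442 CPM in Perthes and at 56.4, 34.3 and 46.9 CPM in control rabbits (log2 fold change -5.15, adjusted p = 0.0118). *LPCAT3*, a phospholipid-remodeling enzyme, was at 27.2 to 46.1 CPM against 72.6 to 85.2 CPM (-1.11, adjusted p = 0.0123). The second LXR gene, *NR1H2*, and the lipogenic factor *SREBF1* had log2 fold changes of 0.15 and 0.07 and did not pass. Without control rabbit 1 the list had 0 higher (3 at an unadjusted p under 0.05) and 1 lower, and without control rabbit 2 edgeR called 0 in either direction (3 higher and 2 lower at an unadjusted p under 0.05). Without Perthes rabbit 3 or 5 it had 2 higher.

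Genes of TREM2 and TYROBP signaling showed few changes. Of 17 tested, 1 was higher, 2 lower and 14 not called, with a median log2 fold change of -0.39. The gene that rose was *CSF1R*, the receptor for the macrophage growth factors, at 394, 334, 396, 186 and 431 CPM in Perthes and 157, 178 and 162 CPM in control rabbits (1.07, adjusted p = 0.0326). *ADAM10*, a protease that sheds TREM2 from the surface, fell (82.7 to 129 CPM against 150 to 200.4 CPM, -0.86, adjusted p = 0.0228). *MS4A4A*, a membrane protein linked to soluble TREM2, passed narrowly with overlapping groups (8.68 to 23.5 CPM against 21.0 to 57.4 CPM, -1.38, adjusted p = 0.04995).

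The kinase *SYK*, which TYROBP recruits, was at 29.5 to 88.5 CPM in Perthes and 66.2 to 143 CPM in control rabbits (log2 fold change -0.53, adjusted p = 0.339). Its downstream lipase *PLCG2* was lower in all Perthes rabbits (90.7 to 124 CPM against 135 to 241 CPM, -0.68) and missed the threshold (adjusted p = 0.0639). Control rabbit 1 was the highest control for *SYK*, *PLCG2*, *LYN* and *PTPN6*, as for *TYROBP*, and these genes are also expressed by neutrophils. Perthes rabbit 1 had the lowest summed level of neutrophil markers (23.1 CPM). Within its group it was highest for *SYK*, *LYN* and *TYROBP*, lowest for *PLCG2* and neither for *PTPN6*. The part of neutrophils in these levels was not tested. The rise of *CSF1R* was the only one in the list by edgeR, DESeq2 called 2 higher and 3 lower, and the list had 0 higher with library totals or without Perthes rabbits 1, 3 or 5 or any single control (2 higher at an unadjusted p under 0.05 with all rabbits).

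Of 12 genes of the MITF family and its regulators, 3 were higher, 0 lower and 9 not called, and the median log2 fold change was 0.31. At an unadjusted p under 0.05 there were also 3 higher and 0 lower, and DESeq2 gave the same numbers. *MITF*, a transcription factor for *GPNMB* in osteoclasts and pigment cells, was at 91.9, 33.8, 51.7, 17.7 and 79.2 CPM in Perthes and at 7.68, 14.2 and 17.9 CPM in control rabbits (2.05, adjusted p = 0.0363). Rabbit 4 fell just within the control range. *RRAGD*, a small GTPase that controls these factors at the lysosome (9.75 to 25.1 CPM against 6.61 to 8.68 CPM, 1.30, adjusted p = 0.0235), and *SQSTM1*, an adaptor of autophagy (138 to 294 CPM against 85.6 to 87.6 CPM, 1.28, adjusted p = 0.0141), rose. The related factors *TFEB* (-0.05), *TFE3* (0.37) and *TFEC* (0.15) did not pass. The ratio of *GPNMB* to *MITF* was 17.8 to 124 in Perthes and 1.13 to 2.54 in control rabbits, so it was higher in every Perthes rabbit than in any control. Without Perthes rabbit 3 or 5 the list had 1 higher, without Perthes rabbit 1 or control rabbit 3 it had 2, and without control rabbits 1 or 2 it had 0 by edgeR, with 4 and 3 higher at an unadjusted p under 0.05.

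Of 10 receptors and partners of GPNMB, osteopontin and galectin 3, 4 were higher, 1 lower and 5 not called, with a median log2 fold change of 0.86. The genes that rose were integrin subunits that bind osteopontin or pair with subunits that do: *ITGAV* (1.05, adjusted p = 0.0313), *ITGB1* (0.91, adjusted p = 0.0274), *ITGB5* (0.89, adjusted p = 0.0188) and *ITGA5* (0.84, adjusted p = 0.0490). With library totals in place of TMM scaling, 2 of the 10 were higher. *ITGA4*, the integrin subunit of lymphocytes and blood cell precursors, fell (45.02 to 77.2 CPM against 110 to 134 CPM, -0.89, adjusted p = 0.0192). *CD44*, a receptor for hyaluronan and osteopontin, was at 438 to 1145 CPM against 320 to 575 CPM and did not pass (0.76, adjusted p = 0.197). *SDC4*, a proteoglycan that GPNMB binds, had its highest value in rabbit 4 (464 CPM, against 78.3 to 137 CPM in the other Perthes rabbits) and did not pass (1.86, adjusted p = 0.0781). Without Perthes rabbit 3 the list had 1 higher, and without Perthes rabbit 5 or control rabbits 1 or 2 it had 0 by edgeR (5 higher at an unadjusted p under 0.05 without control rabbit 2).

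**Figure D5:**
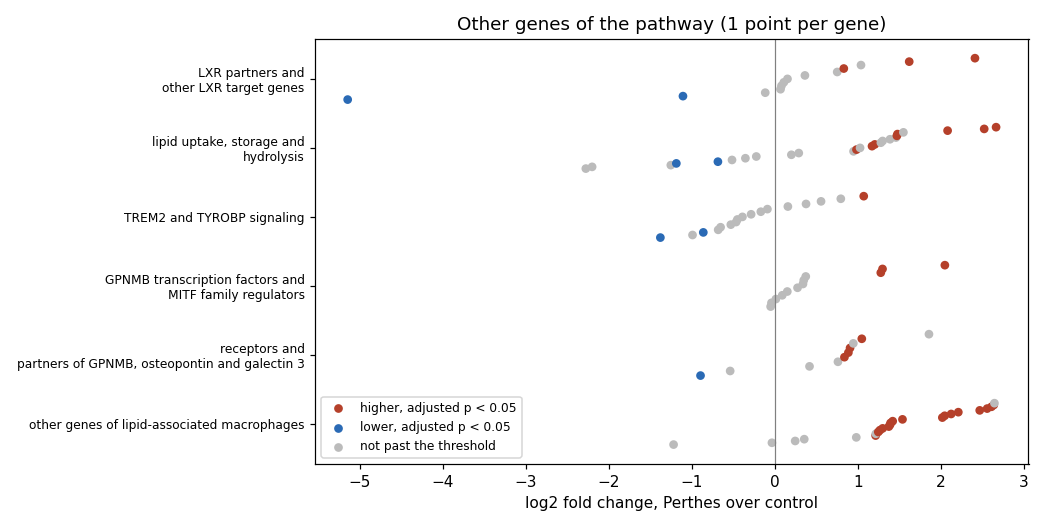
Log2 fold change, Perthes over control, of the other genes of the pathway, 1 point per gene in 6 lists, with genes past an adjusted p of 0.05 in red (higher) or blue (lower) and the rest in gray. In the list of lipid-associated macrophage genes 17 of 24 points are red and 0 are blue, while in the list of TREM2 and TYROBP signaling 14 of 17 are gray. The blue point far left is *CD5L* at -5.15.

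General macrophage markers did not move as a block. Of 10 tested, 3 were higher (*CSF1R*, *MRC1* and *CD14*), 1 was lower and 6 were not called. Over all genes tested, 6.21% were called higher and 8.86% lower. Of the 3, only *CSF1R* had groups apart. Rabbit 4 lay within the control range of *MRC1* (56.4 CPM against 53.7 to 64.0 CPM) and of *CD14* (44.4 CPM against 18.9 to 59.0 CPM). *C1QC*, a complement gene of macrophages, fell (21.6 to 61.2 CPM against 129 to 221 CPM, -2.09, adjusted p = 0.0133). *AIF1*, *CD163*, *ADGRE1*, *SPI1*, *LAPTM5* and *MARCO* were not called. *ADGRE1* was taken by gene ID from a row that the table itself describes as fibrillin-2, so its identity is uncertain. The summed level ranged from 601 to 2194 CPM in Perthes and from 674 to 1160 CPM in control rabbits, and no gene of the list was at 0. *CD5L* and *C1QC* were lower in the same libraries in which *GPNMB* and *TREM2* were higher. Other macrophage genes differed from these, as *MRC1* (log2 fold change 1.96) and *MERTK* (1.62) were called higher and *CD163* (0.19) was not called. A change in the kinds of macrophages was not tested.

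Osteoclasts, which express *GPNMB*, *SPP1*, *MITF* and *ATP6V0D2*, were checked in the same way. Of 9 osteoclast genes tested, 2 were higher and 0 lower, with 4 higher and 0 lower at an unadjusted p under 0.05 and 4 higher by DESeq2. The higher genes were the bone-degrading protease *CTSK* (991 to 3773 CPM against 404 to 831 CPM, log2 fold change 1.83, adjusted p = 0.0272) and the fusion protein gene *DCSTAMP* (1.58, adjusted p = 0.0343). *ACP5*, the osteoclast acid phosphatase, was at 138 to 616 CPM against 292 to 425 CPM (0.36) and did not pass. The summed level was 2883 to 5789 CPM in Perthes and 1377 to 2474 CPM in control rabbits, and *CLCN7* was at or near 0 in every library. *CTSK* alone made up much of that sum, with 2546 of 3331 CPM in Perthes rabbit 1. The groups overlapped for each of the 7 osteoclast genes not called, among them *MMP9* (483 to 1390 CPM against 605 to 1146 CPM). The part of osteoclasts in the *GPNMB* level was not tested.

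Of the pigment cell genes, *MLANA* rose (5.20 to 42.0 CPM against 3.35 to 5.90 CPM, log2 fold change 2.55, adjusted p = 0.0271) with groups that overlapped at rabbit 4. The other genes of the list, *PMEL* (0.270 to 0.991 CPM in Perthes and 0.529 to 0.698 CPM in control rabbits), *TYR* (0 CPM in every library except that of Perthes rabbit 1, at 0.0675 CPM) and *DCT* (at most 0.112 CPM), were at or near 0. The part of pigment cells in the *GPNMB* level was not tested.

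Markers of blood-forming marrow cells had lower values in the Perthes libraries. All 8 neutrophil genes had lower values in every Perthes rabbit than in any control, where 13.9% of all genes tested were apart in this direction, and 4 of the 8 were called lower, with a summed level of 23.1 to 1527 CPM against 5045 to 19217 CPM. All 9 erythroid genes were likewise apart and lower (35.6 to 2550 CPM against 5384 to 6235 CPM), with 1 called. Of 7 fibroblast genes 3 were higher, with a summed level of 14398 to 26008 CPM against 1490 to 8834 CPM. B cell genes had 1 of 4 called lower and T cell genes 1 of 4 called higher. Chondrocyte, adipocyte, endothelial, osteoblast and muscle genes had 0 called in either direction by edgeR. At an unadjusted p under 0.05 they had 2 higher chondrocyte, 2 higher osteoblast and osteocyte, 1 higher endothelial, 1 lower muscle and 0 adipocyte genes, and DESeq2 called 1 osteoblast or osteocyte and 1 endothelial gene higher. The part of these shifts in the levels of the 10 genes was not tested.

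The genes whose pattern was most like that of *GPNMB* were sought among 8176 genes with a mean of at least 10 CPM. Over the 8 libraries, the highest Pearson correlations of log2 CPM were those of *DACT1* (0.997), *PTTG1IP* (0.987), *YIPF4* (0.987), *LOXL1* (0.987) and *CDH3* (0.986). Of these, *LOXL1* is an enzyme that cross-links elastin, *CDH3* encodes P-cadherin and *DACT1* a regulator of Wnt signaling. The likeness combines the difference between the groups with the low value of Perthes rabbit 4, as in *CDH3*, at 41.8, 26.4, 22.4, 1.78 and 22.2 CPM in Perthes and 0.179, 0.353 and 0.599 CPM in control rabbits.

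Over the 5 Perthes libraries alone, the most similar genes were *LMO2*, *PLCB2*, *NIT1*, *SLC40A1* and *CERS6*, with correlations from 0.997 to above 0.999. None of these was called between the groups, and none was among the 5 most similar once rabbit 4 was left out, so this likeness rests on rabbit 4. Of the 10 genes, the one closest to *GPNMB* over the 8 libraries was *TREM2* (0.995), then *LGALS3* (0.981) and *FABP5* (0.962), and the least similar were *NR1H3* (0.639) and *SPP1* (0.644). These correlations are descriptions over libraries that fall into 2 groups, and they have no test.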

How the data were processed

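Ribosomal RNA was removed from the total RNA of 5 Perthes and 3 control femoral heads before directional library preparation. Filtering of reads with SOAPnuke, mapping with HISAT2 2.0.4 and counting with RSEM 1.1.17 and HTSeq 1.99.2 were done by the authors, whose deposited table holds expected counts without normalization, of which 10.0% to 10.7% per library were not whole. Another 8 columns of per-sample values were not used, nor were the small RNA samples. Control rabbit 3 was numbered by its code, since its title repeats the number 2.

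Counts were rounded, and edgeR 4.0.16 (R 4.3.3) was applied with TMM scaling, filterByExpr and the quasi-likelihood F-test, both groups in 1 fit (biological coefficient of variation 0.361). Standard errors of log2 fold changes were derived as the absolute value over the root of F. The fits were tested on simulated counts with 200 changed genes before use. There edgeR recovered 185 of them with 4 wrong calls, and DESeq2 recovered 194 with 56 wrong calls. Smaller changes, such as most of those in the lists, were not simulated, so their recovery is not known. Given the 56 wrong calls, the larger counts of DESeq2 given here may hold more false calls. For genes with low counts, such as *TREM2* in the controls (73 to 105 counts), counting error adds to the variation between rabbits. Litters and batches are not given in the sources used here.

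The 10 genes, 6 pathway lists and 13 marker lists were chosen with earlier results of these data known. Named list genes were up to 3 per direction with the largest fold among those called with groups apart, the 5 genes most like *GPNMB* over all and over Perthes libraries, and list genes on which a count or marker check turned. Of all listed genes, 198 matched by symbol, 3 by gene ID and 21 had no row. Protein roles are background knowledge. Alternatives were DESeq2 1.42.0, its size factors in edgeR, library totals, no filter, at least 10 counts in every library, a prior count of 0.5 in place of 2, Spearman correlation, the replicate number as a block, the thresholds of the paper (log2 fold change beyond 2, adjusted p under 1e-05) and each rabbit left out. The likeness to *GPNMB* with each rabbit left out was added after the data were seen. A few genes that the lists and rule cover are not reported here by name.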

Additional observations from a re-analysis of the deposited data

Results flagged for a closer look

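Among the 10 genes, 4 had a Perthes rabbit far from the other 4 on the log2 CPM scale, by Dixon's test at its 95% critical value of 0.710 for 5 samples. Perthes rabbit 4 stood low for *GPNMB* (314 CPM), *TREM2* (15.2 CPM) and *APOE* (34.4 CPM). Perthes rabbit 5 stood high for *SPP1* (3067 CPM). Chance marks about 1 in 20 groups in this way, and the genes share the same rabbits, so these are not separate observations.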

How the results depend on the processing

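The log2 fold changes of the 10 genes were recomputed under 14 settings, giving 140 values, with no change of sign. Each moved by less than 1 SD between rabbits, pooled within the groups (1.41 for *GPNMB*, 0.73 for *TYROBP*). Leaving out 1 rabbit can hardly move a group mean by more than that SD. For those settings the measure therefore says little, and the ranges are given instead. Left-out rabbits moved *GPNMB* from 7.34 to 7.83, *TREM2* from 5.30 to 5.78 and *TYROBP* from 0.54 to 1.35. The counts of called genes varied widely with the setting. Over all genes, 951 were higher and 1356 lower, DESeq2 called 1700 higher, and leaving out each rabbit gave 0 to 1267 higher and 0 to 1628 lower. At the thresholds of the paper edgeR called 0 genes in both directions and in every list, where 2345 were higher and 2538 lower at an unadjusted p under 0.05. This was certain, since the smallest adjusted p of edgeR's test was 0.0118. The paper applied its thresholds to DESeq2, and here they were applied to the edgeR fit alone, so the 0 cannot be set against its count.

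The replicate number as a block gave 0 calls over all genes, in every list and among the 10 genes, with 1504 higher and 1648 lower at an unadjusted p under 0.05. In that block fit 20 of the lipid-associated macrophage genes, 12 lipid genes, 3 LXR genes, 3 signaling genes, 3 MITF genes, 5 receptors and 8 of the 10 genes were higher at an unadjusted p under 0.05. Same-numbered rabbits had correlations of -0.317, 0.161 and -0.238, so the numbers do not pair the rabbits, and Perthes rabbits 4 and 5 have no partner.

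Leaving out each rabbit gave 0 to 20 higher and 0 lower lipid-associated macrophage genes, 0 to 12 higher and 0 to 5 lower lipid genes, 0 to 3 higher and 0 to 2 lower LXR genes, 0 to 2 higher and 0 to 2 lower signaling genes, 0 to 3 higher MITF genes, and 0 to 5 higher and 0 to 1 lower receptors. Every count was 0 without control rabbit 2, where 1624 genes were higher and 2098 lower at an unadjusted p under 0.05, and some counts were also 0 without other rabbits. Without control rabbit 1, 73 higher and 184 lower genes passed the adjusted threshold. DESeq2 gave 2 higher signaling genes, 4 lower lipid genes and 1 lower lipid-associated macrophage gene. Library totals gave 4 lower lipid genes, 0 higher signaling genes (2 by unadjusted p with TMM scaling) and 2 higher receptors, and moved the median of all genes by -0.0872 on the log2 scale. Without the filter 1 signaling gene was lower.

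Of the 5 genes most like *GPNMB* over the 8 libraries, 3 were shared with library totals, 0 by Spearman correlation and 2 to 3 with a rabbit left out. Of those over the Perthes libraries, 0 were shared with library totals and 0 to 3 with a rabbit left out. The 10 genes had at least 73 counts in every library.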
